A study of Mus musculus with 6 samples.

Results

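The cytochrome P450 genes of the mouse were followed in cortical RNA of male C57BL/6J animals taken 14 days after stroke. The members are the protein-coding genes whose symbol is Cyp followed by a family number, a subfamily letter and a gene number, together with Cyp51. This gave 93 genes among 24553 genes and unmatched rows of the count table. Of these, the 21 compared between the groups were chosen by their count summed over the 6 libraries, which had to be 60 or more. Group labels were not used in that choice. The family itself was chosen with earlier results of these data known. Counts of members set beside shares of all genes are therefore a description only. A gene with most of its counts in a single group could still pass through that group, as Cyp11a1 and Cyp2s1 did with SCFA. The 3 SCFA animals drank water with short-chain fatty acids (SCFA), and the 3 control animals drank water matched in salt. Both drinks were started at 6 to 8 weeks of age and kept up over 4 weeks, and the tissue comes from animals 15 weeks old. The antibiotics metronidazole, neomycin, ampicillin and vancomycin were also in the water of every animal, sweetened with 5% sucrose, so the controls carry that treatment too. The sources used here do not say which hemisphere was taken or how far from the lesion. According to the design text a group held 3 mice, and each library was taken as 1 mouse.

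Cytochrome P450 enzymes hold a haem group with which they insert an oxygen atom into fats, sterols, steroids, vitamins and drugs. Those of the endoplasmic reticulum take electrons from the reductase encoded by Por, and those of mitochondria take them from ferredoxin and its reductase. The liver holds most of the drug-metabolising forms, whereas the brain is known for Cyp46a1, through which neurons turn cholesterol into an oxysterol that can leave the brain, and for forms that oxidise arachidonic acid and other polyunsaturated fatty acids. Other members make cholesterol (Cyp51), start steroid synthesis (Cyp11a1) or clear retinoic acid (the Cyp26 genes).

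Of the 93 genes, 66 had at least 1 count and 27 had none in any library. The 21 compared genes held 98.3% of the 19644 counts of the family, and Cyp46a1 and Cyp51 alone held 53.7%. The drug-metabolising families had the most genes and few counts: 4 of 47 reached 60 counts, 24 were detected below that and 19 stood at 0. Of the fatty acid-oxidising families (Cyp2j, Cyp2u and Cyp4), 11 of 25 reached 60 counts. So did 3 of 6 genes of oxysterol and bile acid formation (Cyp46a1, Cyp7b1 and Cyp27a1), 2 of 7 of sterol and steroid synthesis (Cyp51 and Cyp11a1), 1 of 3 of retinoic acid clearance (Cyp26a1) and 0 of 3 of vitamin D activation and breakdown.

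**Figure D1:**
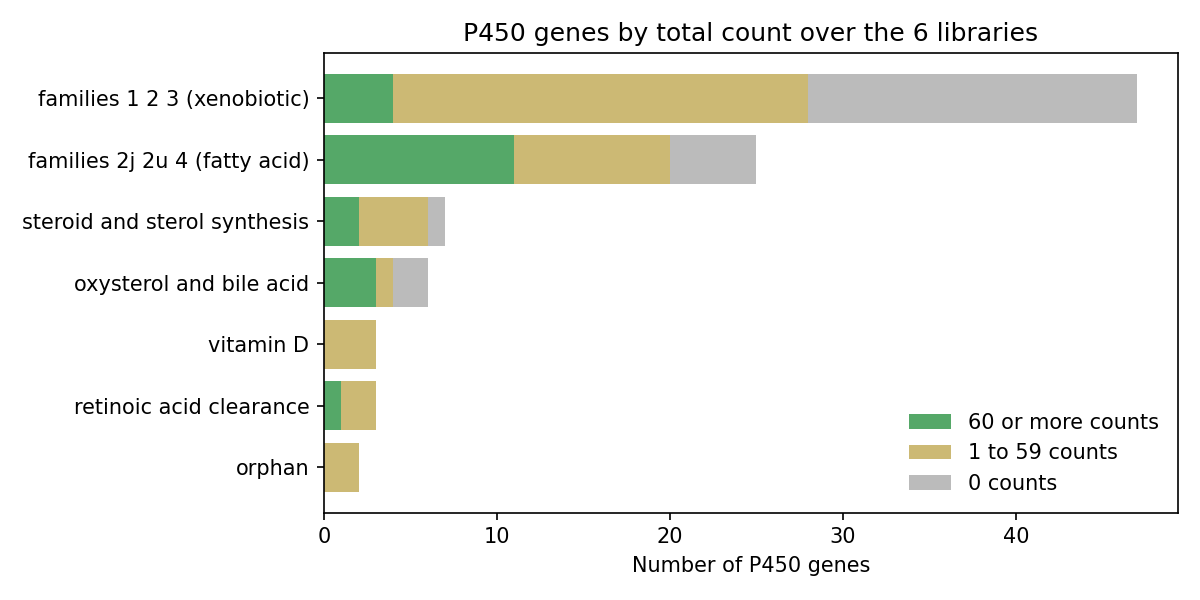
Number of P450 genes (horizontal axis) in each functional class (vertical axis), split by their count summed over the 6 libraries: 60 or more, 1 to 59, or 0. The drug-metabolising families hold 47 genes, of which 4 reached 60 counts, and the fatty acid-oxidising families hold 25, of which 11 did.

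Whether a P450 gene was detected moved with the number of transcript rows it had in the table. All 21 compared genes had a single RefSeq row. Of the 82 members with 1 row, 25.6% reached 60 counts, and of the 11 members with 2 or more rows 0 did, where among all protein-coding genes 61.5% of those with 1 row and 34.1% of those with 2 or more rows did. P450 genes thus lay under the share of all genes in both sets. Among the members with several rows, Cyp2d22, Cyp39a1, Cyp1a1, Cyp2c23, Cyp2c50, Cyp3a25 and Cyp4a31 had 0 counts, and Cyp20a1, Cyp2r1, Cyp4f14 and Cyp26b1 had 43, 25, 4 and 2. A count of 0 or near 0 in such a gene was therefore not read as absence from the tissue, and the part of the counting in it was not tested. Total counts of the compared genes ran from 6242 for Cyp46a1, 4314 for Cyp51, 1727 for Cyp2j9 and 1122 for Cyp2j6 down to 73. Around the limit of 60 counts, Cyp2s1, Cyp4f18 and Cyp2t4 lay just inside with 102, 86 and 73 counts, and Cyp20a1, Cyp3a13 and Cyp2r1 just outside with 43, 37 and 25.

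Levels were measured as CPM, the count scaled to library size, per kilobase of transcript, so that genes of different length can be set side by side. On this scale Cyp46a1 averaged 42.0 over the 6 libraries, with a range of 33.3 to 61.5. Next came Cyp51 at 16.3 (range 10.8 to 20.9), Cyp2j9 at 12.3 (9.29 to 17.0) and Cyp26a1 at 8.13 (3.30 to 14.9). The range of Cyp46a1 did not touch that of any other member, while each of the next 3 overlapped its neighbour in the order. Cyp7b1, Cyp2j6, Cyp4x1, Cyp4f15, Cyp4v3 and Cyp4f13 lay between 4.56 and 3.04 with overlapping ranges, and the other 11 genes lay between 1.65 and 0.493.

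**Figure D2:**
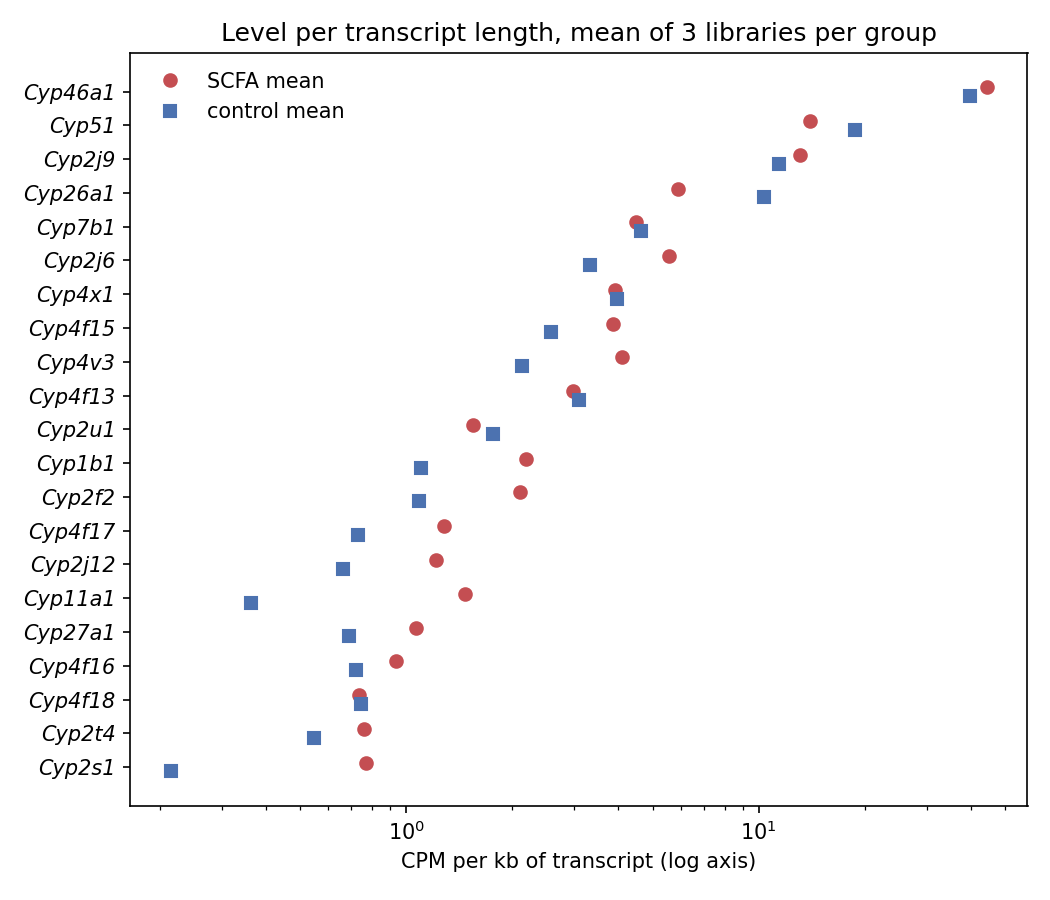
Level of the 21 compared P450 genes in CPM per kilobase of transcript (horizontal log axis), as the mean of 3 SCFA libraries (circles) and of 3 control libraries (squares). Cyp46a1 stands highest in both groups, at 44.3 with SCFA and 39.7 in controls, and Cyp2s1 is the lowest in controls at 0.215.

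The DNA before the start of Cyp46a1 and Cyp51, the members with the most counts, and of Cyp2j6, the member with the smallest p, is given here from 250 to 51 bases before the start that the RefSeq promoter table uses (GRCm38.p6). For Cyp46a1 and Cyp2j6 that start lies inside the outer bounds of the gene given with their values, which span all its RefSeq transcripts. Capitals mark GGGCGG, the GC box bound by Sp factors, and GCGTG, the core bound by the aryl hydrocarbon receptor, searched on both strands, with no base shared by the 2 motifs.
Cyp46a1 (chr12:108334066-108334265, plus strand): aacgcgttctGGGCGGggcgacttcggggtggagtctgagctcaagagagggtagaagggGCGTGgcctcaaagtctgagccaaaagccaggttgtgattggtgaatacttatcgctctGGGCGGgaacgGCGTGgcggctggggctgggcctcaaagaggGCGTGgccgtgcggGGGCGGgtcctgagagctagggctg
Cyp51 (chr5:4104748-4104947, minus strand): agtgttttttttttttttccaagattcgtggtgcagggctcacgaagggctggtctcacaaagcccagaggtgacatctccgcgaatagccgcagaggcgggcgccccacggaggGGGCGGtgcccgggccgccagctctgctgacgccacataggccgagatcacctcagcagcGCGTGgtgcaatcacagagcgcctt
Cyp2j6 (chr4:96553702-96553901, minus strand): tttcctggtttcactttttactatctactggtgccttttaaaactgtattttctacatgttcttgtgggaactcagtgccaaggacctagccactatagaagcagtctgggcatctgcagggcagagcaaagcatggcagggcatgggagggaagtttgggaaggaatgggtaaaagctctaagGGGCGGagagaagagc
The Cyp46a1 window held each motif 3 times and had a GC content of 64.5%, against 61.5% for Cyp51 and 48.0% for Cyp2j6. Promoters were at hand for 17 of the 21 compared genes (18 windows). GGGCGG was found in 11 of these 18 windows and in 24.6% of all 32851 promoter windows of the same length, and GCGTG in 5 of 18 and in 22.6%. The letters CACNCCAC, which occur in the sterol regulatory element of the human LDL receptor gene, were found in 0 of 18 and in 4.17% of all windows. A match describes the letters only.

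Total counts ran from 9275252 to 13862756 per library, and a single unmatched row took 35.0% to 55.3% of them. A library of each group stood apart in a principal component analysis. On the first component control 2 was at 110.2 and the other libraries were between -26.7 and -18.2, and on the second SCFA 2 was at -51.2, farther from 0 than any other. P450 genes with at least 1 count numbered 39, 39 and 41 in SCFA 1 to 3, and 37, 24 and 36 in controls 1 to 3. Control 2 held the largest share in the unmatched row, 55.3%. It also had the smallest library size after scaling, 8684077, where the others ran from 9564144 to 14552375. The part of this depth in the number detected was not tested. The neuronal markers Snap25, Syt1, Slc17a7, Neurod6, Tbr1, Gad1, Gad2 and Stmn2 all had enough counts to be tested, whereas the liver markers Apoa2, Apoc3, Ahsg, Fgb, Serpina1a and Tat had 0 counts in each library and Alb had 2 in all. The remaining liver marker Apoa1 had 154 counts, all in control 1. Of the liver markers at 0, Fgb and Tat have a single row. Apoa2, Apoc3, Ahsg and Serpina1a have several, so the 0 of these was not read as absence. Striatal markers (8 genes, none at 0) summed to 67.8, 388 and 76.5 CPM in SCFA 1 to 3, and to 127, 86.6 and 66.7 CPM in controls 1 to 3, highest in SCFA 2. Markers of exocrine pancreas (8 genes, none at 0) summed to between 0.412 and 0.941 CPM with SCFA. In controls 1 to 3 they summed to 180, 306 and 25.6 CPM. All 7 tested lay lower with SCFA, and 6 of them passed the test given below. Choroid plexus markers (8 genes, Folr1 at 0 over several rows) lay between 8.86 and 14.0 CPM with SCFA and between 7.71 and 12.5 CPM in controls.

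With SCFA, 0 of the 21 compared P450 genes passed the test (edgeR quasi-likelihood, Benjamini-Hochberg adjusted p under 0.05 over 11975 genes), where 0.0835% of all genes tested did, 0.00835% higher and 0.0752% lower. The genes that passed lower included 6 markers of exocrine pancreas. The smallest adjusted p of a member was 0.851. In bulk tissue, a change in the number of cells of a type and a change in RNA per cell cannot be told apart. At an unadjusted p under 0.05 there were 4 members, against 5.83% of all genes. Cyp2j6 and Cyp4v3 lay higher with SCFA (2.93% of all genes did), and Cyp51 and Cyp26a1 lay lower (2.9% of all genes did). DESeq2 and limma-voom also called 0 members at an adjusted p under 0.05, with 5 each at an unadjusted p under 0.05, where 6.54% and 6.53% of all genes had one. The groups did not overlap in 2 members that lay higher with SCFA, Cyp2j6 and Cyp11a1 (6.35% of all genes), and in 2 that lay lower, Cyp51 and Cyp2u1 (5.8% of all genes).

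In direction, 14 of the 21 compared members had a log2 fold change above 0, against 50.5% of all genes tested. With total-count scaling 18 did, and that scaling moved the median of all genes to 0.18. Members were chosen with earlier results of these data known, and Cyp11a1 and Cyp2s1 passed the count limit through SCFA. These values are a description, and a difference in direction between members and all genes was not tested. The median over the compared members was 0.46, and over all genes 0.00. With 1 library left out it lay between 0.26 (without SCFA 3) and 0.51, with 0.29 without control 3, and without SCFA 2 and control 2 together it was 0.39. The summed level of all 93 genes was 275.5, 322 and 283 CPM in SCFA 1 to 3, and 272, 280 and 274 CPM in controls 1 to 3, and the groups overlapped. With 1 library left out, members at an unadjusted p under 0.05 numbered 0 without SCFA 2 (3.1% of all genes), 2 without control 2 (5.98%) and 1 without control 3 (6.58%), and 3 or 4 in the other cases. There were 3 without SCFA 2 and control 2 together (5.81%).

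**Figure D3:**
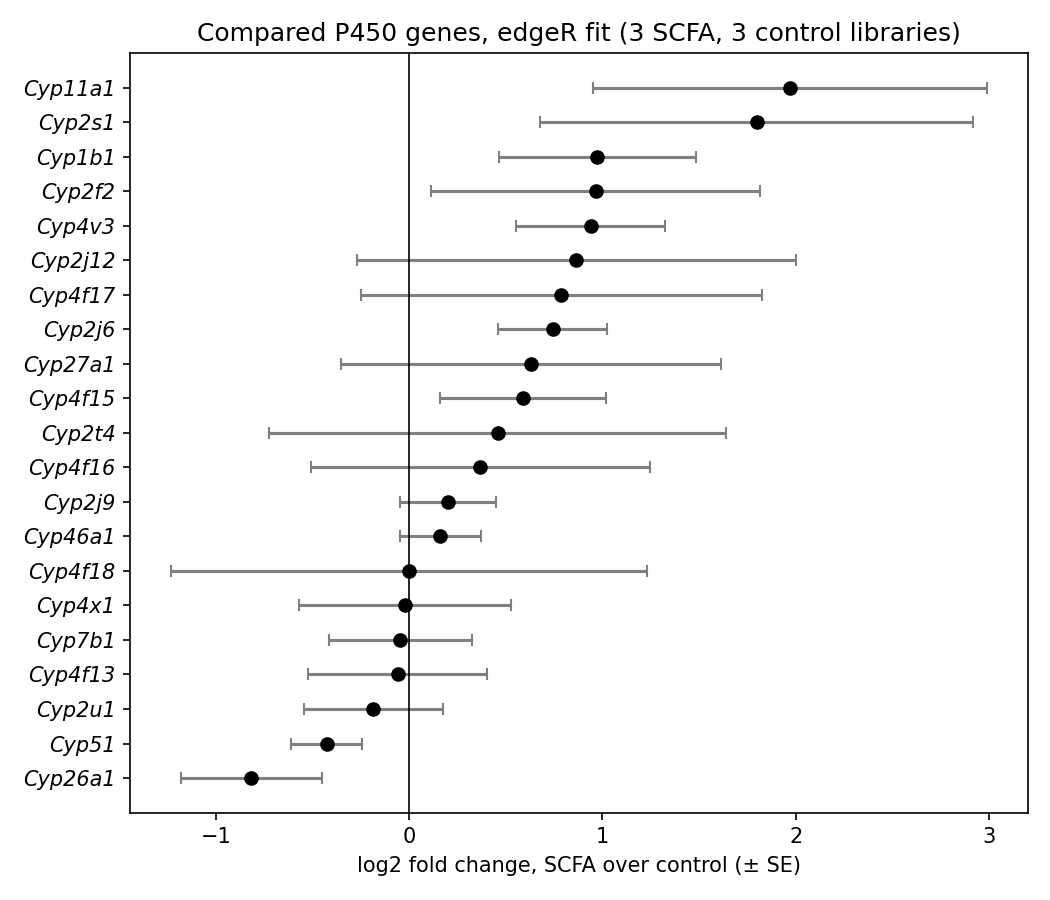
Log2 fold change (SCFA over control, horizontal axis) with its standard error for the 21 compared P450 genes, fitted on 3 SCFA and 3 control libraries. Values run from -0.82 for Cyp26a1 to 1.97 for Cyp11a1, and the bars are widest for the genes with few counts.

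Among the genes of sterol and steroid synthesis, Cyp51, the enzyme that removes a methyl group from lanosterol on the way to cholesterol (gene on chromosome 5, 4080674 to 4104697), had 61.1, 42.5 and 61.0 CPM in SCFA 1 to 3, and 72.3, 66.4 and 82.3 CPM in controls 1 to 3. Every SCFA library lay below every control, and SCFA 2 was the lowest. The means were 54.9 ± 10.7 CPM with SCFA and 73.7 ± 8.04 CPM in controls (SD, n = 3 each). The difference of -0.43 on the log2 scale (SE 0.185) did not pass (edgeR adjusted p = 0.851). Without SCFA 2 it was -0.27. A stretch of 3.76% of its exonic bases is shared with Akap9 on the other strand, and the sources used here do not say whether the counting used strand. The other enzymes that make lanosterol or turn it into cholesterol were all tested, and 0 of 9 passed, with 5 above 0, 4 below and a median of 0.03. The smallest p among them belonged to Msmo1, which acts shortly after Cyp51, with 51.5, 37.5 and 63.9 CPM in SCFA 1 to 3, and 61.6, 106 and 66.4 CPM in controls 1 to 3. Its groups overlapped, and its log2 fold change was -0.61 (SE 0.240, adjusted p = 0.851). Nsdhl lay higher with SCFA in each library at 0.33 (SE 0.283). Srebf2, the gene of the factor that drives the cholesterol enzymes, had a log2 fold change of -0.06 (SE 0.149).

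Cyp11a1, the mitochondrial enzyme that cuts the cholesterol side chain to start steroid synthesis (chromosome 9, 57998024 to 58027031), had 36, 28 and 49 counts in SCFA 1 to 3, and 15, 0 and 11 counts in controls 1 to 3. The SCFA libraries lay above the controls also after scaling, at 3.11 ± 1.03 CPM and 0.772 ± 0.671 CPM (SD, n = 3 each), and the 0 in control 2 lies under a floor of 3 counts, or 0.345 CPM. The log2 fold change was 1.97 (SE 1.02, edgeR adjusted p = 0.869), and 1.41 without control 2. Of its partners, Star, which carries cholesterol into mitochondria, had 6.28 ± 1.49 CPM with SCFA and 5.32 ± 0.636 CPM in controls (SD, n = 3 each). Tspo, a mitochondrial outer membrane protein known as a marker of reactive glia, had 13, 62 and 81 counts in SCFA 1 to 3, and 17, 0 and 11 counts in controls 1 to 3, and its difference was 2.20 on the log2 scale (SE 1.003, edgeR adjusted p = 0.851). Its groups overlapped, since SCFA 1 and control 1 came to nearly the same CPM. Akr1c14, a reductase of neurosteroid formation, had a log2 fold change of -0.68 (SE 1.08). The adrenal markers Mc2r, Nr5a1 and Hsd3b1 had 0 counts in all libraries, but each has several rows, so this was not read as absence. The other adrenal markers were Star, given above, and Akr1b7 with 1 count. Among the other steroid-forming members, Cyp17a1 had 9 counts, Cyp11b2 had 4, Cyp11b1 and Cyp19a1 had 1 each and Cyp21a1 had 0.

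Cyp46a1, the cholesterol hydroxylase of neurons (chromosome 12, 108334268 to 108362234), had 70.6, 130.4 and 80.5 CPM in SCFA 1 to 3, and 77.5, 86.1 and 88.5 CPM in controls 1 to 3. SCFA 2 alone stood above the controls, and the other SCFA libraries lay at the low end or among them. Its log2 fold change was 0.16 (SE 0.210, edgeR adjusted p = 0.950), with -0.15 without SCFA 2, a change of sign, 0.33 without SCFA 1 and 0.26 without SCFA 3. Summed neuronal markers (8 genes) came to 1743, 1968 and 1856 CPM in SCFA 1 to 3, and to 1664, 1617 and 1858 CPM in controls 1 to 3, so they were highest in SCFA 2 as well, as were the striatal markers given above. The neuronal markers did not all follow their sum. Slc17a7, the largest, had 966 CPM in SCFA 2 and 961 CPM in SCFA 3. Syt1, Gad2 and Stmn2 were also highest in SCFA 2, whereas Snap25, Neurod6, Tbr1 and Gad1 were highest in a control. Syt1, Snap25 and Gad1 have several rows each, so their counts were not read as their level in the tissue. Neurod6 was lowest in SCFA 2, at 61.6 CPM. The part of the neuronal and striatal markers in the value of Cyp46a1 was not tested. Cyp7b1, which hydroxylates oxysterols and neurosteroids, measured 9.70 ± 2.94 CPM with SCFA and 10.1 ± 3.73 CPM in controls (SD, n = 3 each), at a log2 fold change of -0.05 (SE 0.371) that ran from -0.31 without SCFA 2 to 0.29 without control 2. Cyp27a1, a mitochondrial sterol hydroxylase, had 13, 24 and 41 counts in SCFA 1 to 3, and 27, 14 and 1 in controls 1 to 3. Control 3 was the lowest, and the log2 fold change of 0.63 (SE 0.985) was 0.09 without it, 0.21 without SCFA 3 and 1.25 without control 1.

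Cyp26a1, which breaks down retinoic acid (chromosome 19, 37697738 to 37701536), had 13.4, 5.91 and 12.4 CPM in SCFA 1 to 3, and 13.4, 26.6 and 15.7 CPM in controls 1 to 3. SCFA 2 was the lowest and control 2 the highest, and the groups overlapped, SCFA 1 and control 1 coming to nearly the same level. The log2 fold change was -0.82 (SE 0.366, edgeR adjusted p = 0.851). It was -0.52 without SCFA 2, -0.47 without control 2 and -0.18 without both. Cyp26b1 and Cyp26c1 had 2 and 3 counts in all. Genes that make or bind retinoic acid did not pass, 0 of 6 tested, with 3 above 0, 3 below and a median of 0.02. Dhrs3, a retinal reductase, lay higher with SCFA in each library at 0.51 (SE 0.355). It has several rows, so its counts were not read as its level in the tissue. The retinoic acid carrier gene Crabp2 had a log2 fold change of -0.72 (SE 0.552). Aldh1a2, which makes retinoic acid, measured 10.8 ± 3.58 CPM with SCFA and 11.6 ± 3.02 CPM in controls (SD, n = 3 each).

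**Figure D4:**
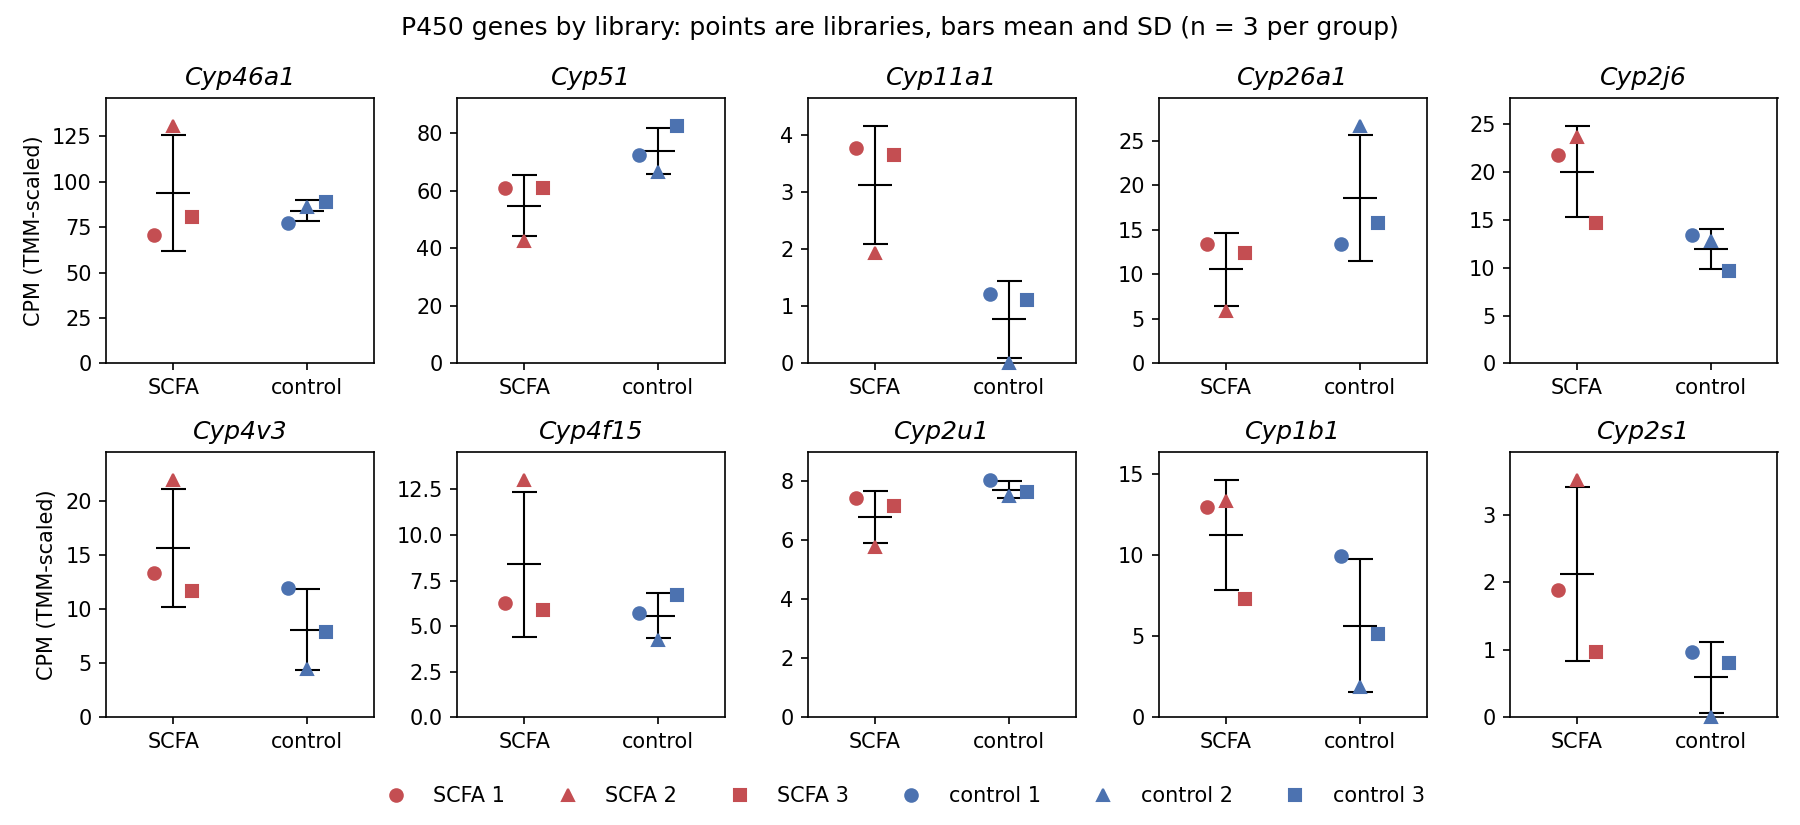
CPM (vertical axes, each from 0) of 10 P450 genes in each library, with the mean and SD of 3 libraries per group; circles, triangles and squares are libraries 1, 2 and 3. SCFA 2 is the highest library for Cyp46a1, Cyp2j6, Cyp4v3, Cyp4f15, Cyp1b1 and Cyp2s1 and the lowest for Cyp51, Cyp26a1 and Cyp2u1.

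The subfamily Cyp2j, whose enzymes oxidise arachidonic acid and other polyunsaturated fatty acids, is a cluster of neighbouring genes on chromosome 4. Cyp2j6 (96516138 to 96564305) had 21.7, 23.6 and 14.7 CPM in SCFA 1 to 3, and 13.4, 12.8 and 9.62 CPM in controls 1 to 3. All SCFA libraries lay above all controls, though SCFA 3 and control 1 were close. The means were 20.02 ± 4.73 CPM with SCFA and 11.9 ± 2.04 CPM in controls (SD, n = 3 each). The difference of 0.74 on the log2 scale (SE 0.283) did not pass (edgeR adjusted p = 0.851). Leaving out single libraries gave 0.61 to 0.92. Cyp2j9, its neighbour and the more abundant gene, had 24.2, 21.4 and 34.6 CPM in SCFA 1 to 3, and 24.4, 26.5 and 18.9 CPM in controls 1 to 3. The groups overlapped, at a log2 fold change of 0.20 (SE 0.249) that was -0.03 without SCFA 3, 0.07 without control 3, 0.34 without SCFA 2 and 0.30 without control 2. Whether Cyp2j6 and Cyp2j9 differed in their response was not tested. Cyp2j12 had 18, 14 and 44 counts in SCFA 1 to 3, and 9, 0 and 26 in controls 1 to 3, with a log2 fold change of 0.86 (SE 1.14) that was 0.30 without control 2, 0.34 without SCFA 3 and 2.38 without control 3.

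The Cyp4 family hydroxylates fatty acids at the end of the chain. Cyp4v3, the mouse counterpart of a human gene mutated in a crystalline retinal dystrophy, had 13.3, 21.9 and 11.7 CPM in SCFA 1 to 3, and 11.9, 4.49 and 7.91 CPM in controls 1 to 3. SCFA 3 lay just under control 1, and SCFA 2 and control 2 were the extremes. The log2 fold change was 0.94 (SE 0.388, edgeR adjusted p = 0.851), 0.62 without SCFA 2, 0.65 without control 2 and 0.33 without both. Gm45753, a gene on the same strand, shares 8.22% of the exonic bases of Cyp4v3. Cyp4f15 had 6.27, 12.99 and 5.88 CPM in SCFA 1 to 3, and 5.75, 4.26 and 6.71 CPM in controls 1 to 3. Apart from SCFA 2 the groups lay together, and the log2 fold change of 0.59 (SE 0.431) was 0.13 without SCFA 2 and -0.04 without SCFA 2 and control 2.

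The other members of this family held little difference against their error. Cyp4f13 (356 counts) and Cyp4x1 (391 counts), which is known from brain, had log2 fold changes of -0.06 (SE 0.463) and -0.02 (SE 0.549), and both changed sign without SCFA 2 and without control 2. With 1 library left out they ran from -0.27 to 0.16 for Cyp4f13 and from -0.39 to 0.52 for Cyp4x1. Cyp4f16, Cyp4f17 and Cyp4f18 had 125, 111 and 86 counts in all and log2 fold changes of 0.37 (SE 0.878), 0.79 (SE 1.04) and -0.00 (SE 1.23). For Cyp4f17, 42 of these counts came from SCFA 1, without which its value was -0.23, and it was 1.27 without SCFA 3. Cyp4f16 came to 0.02 without control 1 or control 2, to 0.22 without SCFA 1 and to 1.54 without control 3. Cyp4f18 ran from -0.45 without SCFA 2 to 1.24 without control 2. Its SE is a ratio of values near 0 and was not steady, at 0.740 with structural RNA removed. Cyp4f16 shares 24.1% of its stretches of 50 bases with Cyp4f37, so reads could be split between them, and every other compared gene shared at most 7.02% with any gene. Cyp2u1, a fatty acid hydroxylase of brain whose human counterpart is mutated in a spastic paraplegia, had 7.42, 5.77 and 7.15 CPM in SCFA 1 to 3, and 8.01, 7.48 and 7.61 CPM in controls 1 to 3. Its groups did not overlap, but SCFA 1 and control 2 differed by less than a single count would at this depth, and the log2 fold change was -0.19 (SE 0.359, adjusted p = 0.956), or -0.08 without SCFA 2.

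Of the drug-metabolising families, 4 genes could be compared and all 4 had a log2 fold change above 0, as 50.5% of all genes tested did. Cyp2s1 passed the count limit through SCFA. The sign of Cyp2t4 changed without control 2, while those of Cyp1b1, Cyp2f2 and Cyp2s1 held with each library left out. A shared change of these families was not tested. Cyp1b1, which oxidises oestradiol and polycyclic hydrocarbons and is induced through the aryl hydrocarbon receptor (chromosome 17, 79706940 to 79715061), had 12.97, 13.3 and 7.30 CPM in SCFA 1 to 3, and 9.95, 1.84 and 5.11 CPM in controls 1 to 3. The groups overlapped between SCFA 3 and control 1, and control 2 was far below the rest. Its log2 fold change was 0.97 (SE 0.511, edgeR adjusted p = 0.869), 0.56 without control 2, 1.68 without control 1 and 0.41 without control 2 and SCFA 2. Markers of endothelium and mural cells (8 genes, with Pecam1 and Pdgfrb at 0 over several rows each) summed to 216, 237 and 218 CPM in SCFA 1 to 3, and to 192, 175 and 197 CPM in controls 1 to 3. The sums were thus highest in SCFA 2 and lowest in control 2, as Cyp1b1 was. Of the 6 tested markers, Slc2a1, Flt1 and Vtn had that order, and Cldn5, Rgs5 and Kcnj8 did not. Rgs5, the marker with the most counts, which has several rows, was lowest in SCFA 2 at 92.0 CPM and had 113 CPM in control 2. The part of these markers in the value of Cyp1b1 was not tested. Markers of meninges and fibroblasts (7 genes, none at 0) lay between 219 and 310 CPM with SCFA, against 209, 315 and 1172 CPM in controls 1 to 3. In control 3 this sum was mostly Col1a1 at 710 CPM and Col1a2 at 411 CPM. Igf2 was also highest in control 3, at 4.41 CPM. Dcn and Lum were lowest there, at 1.30 and 4.41 CPM, and Slc6a13 and Ogn lay within the range of the other libraries. Igf2 and Dcn have several rows each, so their counts were not read as their level in the tissue.

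Cyp2s1, an enzyme found mainly outside the liver, had 18, 51 and 13 counts in SCFA 1 to 3, and 12, 0 and 8 counts in controls 1 to 3. After scaling, SCFA 3 and control 1 came to nearly the same level, and the log2 fold change of 1.797 (SE 1.118, edgeR adjusted p = 0.877) was 0.66 without SCFA 2 and control 2. Cyp2f2, known for activating naphthalene in mouse lung, had 15, 61 and 81 counts in SCFA 1 to 3, and 27, 32 and 2 counts in controls 1 to 3. It overlapped between the groups, at 0.97 (SE 0.851), and measured 0.43 without control 3, 0.52 without SCFA 3 and 1.69 without control 2. Cyp2t4 had 73 counts and a log2 fold change of 0.46 (SE 1.18), which was -0.10 without control 2, 0.06 without SCFA 3, 0.84 without SCFA 1 and 1.30 without control 3. Well-known P450 genes of liver, with Cyp7a1 of bile acid synthesis among them, were at or near 0: Cyp3a11 and Cyp2e1 had 1 count each, Cyp1a2 had 8 and Cyp2b10, Cyp2c29 and Cyp7a1 had 0. Each of these 6 genes has a single row in the table.

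Several compared genes share exonic bases with a gene on the other strand, which matters if the counting ignored strand. The share was 13.5% for Cyp2f2, 10.7% for Cyp4x1, 10.5% for Cyp2u1, 9.76% for Cyp4f18, 5.27% for Cyp2s1 and 0.667% for Cyp2t4. Cyp11a1 shared 3.02% with Gm17322 on its own strand. Whether reads in these bases were assigned by strand is not known from the sources used here.

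Astrocyte markers (7 genes, none at 0, all above 0 in log2 fold change, median 0.51, 0 passing) summed to 963, 1520 and 1123 CPM in SCFA 1 to 3, and to 684, 773 and 799 CPM in controls 1 to 3. Microglial markers (8 genes, none at 0, all above 0, median 0.83, 0 passing) summed to 489, 790 and 496 CPM in SCFA 1 to 3, and to 289, 417 and 315 CPM in controls 1 to 3. Both sums were higher in every SCFA library than in any control and highest in SCFA 2. The part of these cells in the values of Cyp2j6, Cyp4v3, Cyp51 or Cyp11a1 was not tested.

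Genes of electron donors and of proteins that bind P450 enzymes (Pgrmc1 and Pgrmc2) did not pass the test, 0 of 10 tested, with 7 above 0, 3 below and a median log2 fold change of 0.14. Por had 44.0, 53.5 and 35.3 CPM in SCFA 1 to 3, and 33.9, 41.8 and 31.6 CPM in controls 1 to 3. The groups overlapped, at 0.31 (SE 0.209, edgeR adjusted p = 0.887). Cyb5a, which encodes cytochrome b5, an additional electron donor, had a log2 fold change of -0.28 (SE 0.203). The mitochondrial donors Fdx1 and Fdxr, on which Cyp11a1 and Cyp27a1 depend, had -0.06 (SE 0.551) and 0.46 (SE 0.541). Fdx1 has several rows, so its counts were not read as its level in the tissue.

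Of 12 genes of haem synthesis and breakdown, 7 were tested and 0 passed, with 4 above 0 and 3 below. Hmox1, the inducible haem oxygenase that breaks haem down, had 6.27, 8.45 and 6.25 CPM in SCFA 1 to 3, and 2.43, 1.15 and 3.41 CPM in controls 1 to 3. All SCFA libraries lay above all controls, at a log2 fold change of 1.58 (SE 0.522) and an unadjusted p of 0.00983 that did not hold after adjustment (edgeR adjusted p = 0.851). Blvra, the biliverdin reductase gene of the next step, lay higher with SCFA in each library as well, at 0.50 (SE 0.253, adjusted p = 0.869). Hmox2, the constitutive haem oxygenase gene, had 6, 5 and 14 counts in SCFA 1 to 3, and 16, 27 and 12 counts in controls 1 to 3. Its CPM lay lower in every SCFA library (-1.46 on the log2 scale, SE 0.964, edgeR adjusted p = 0.884). Hmox2 has 2 rows, so its low counts were not read as its level in the tissue.

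Among the receptors that induce P450 genes, 7 of 19 had enough counts and 0 passed. Ahr had 2, 12 and 10 counts in SCFA 1 to 3, and 1, 28 and 13 in controls 1 to 3, and the retinoic acid receptor gene Rarb had 101 counts and a log2 fold change of 1.002 (SE 0.948). Ahr and Rarb have several rows each, so their counts were not read as their level in the tissue. Nr1i2 and Nr1i3, the genes of the drug-sensing receptors PXR and CAR, had 0 counts but several rows each. The P450-like enzymes of prostanoid synthesis, which the symbol rule leaves out, had log2 fold changes of 0.20 for Ptgis (SE 0.479) and 0.00 for Tbxas1 (SE 0.712), and Ephx2, which hydrolyses the epoxides that P450 enzymes make, had 0 counts over 4 rows.

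**Figure D5:**
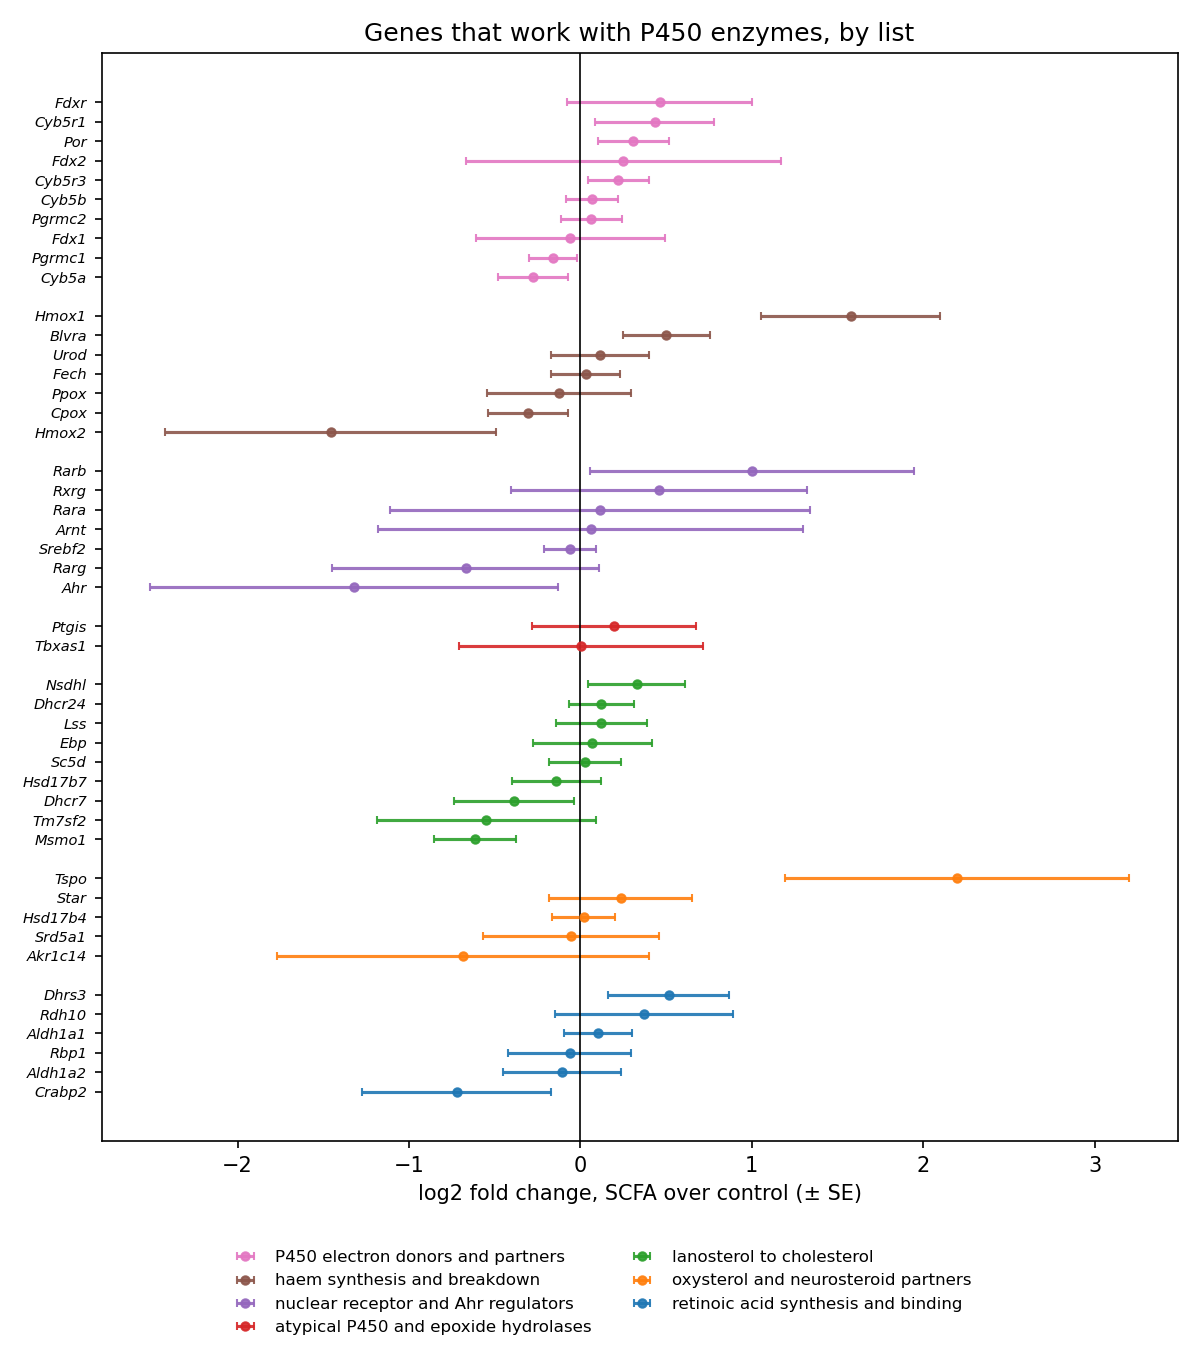
Log2 fold change (SCFA over control, horizontal axis) with its standard error for tested genes that work with P450 enzymes, coloured by list. Hmox1 at 1.58 and Tspo at 2.20 lie farthest above 0, and no gene shown passed the adjusted test.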

How the data were processed

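Cortex RNA of 6 mice was sequenced. The deposited values are raw read counts per RefSeq transcript, in 34755 rows. The submitters' processing notes name CASAVA 1.8.2, featureCounts and the build mm10. Not given in the sources used here are the aligner, the strand setting and how reads common to several transcripts were handled. Rows were paired with symbols through RefSeq GRCm38.p6 (34424 rows, 99.05%) and summed per symbol.

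Genes with 60 or more counts in total went into edgeR 4.0.16 under R 4.3.3 (TMM scaling, quasi-likelihood F test, two-sided, no covariate, Benjamini-Hochberg adjustment over 11975 genes, threshold 0.05), a procedure checked on simulated counts. The standard error is the log2 fold change divided by the square root of F, a ratio of values near 0 for Cyp4f18 and Tbxas1. Library sizes include all rows, and CPM uses TMM-scaled sizes, with which 3 counts stood for 0.206 to 0.345 CPM. Floors cover counting error only, and p-values measure the spread between these libraries. Transcript lengths and shared stretches come from GENCODE M21. Members, lists and the setting without control 2 and SCFA 2 were chosen with earlier results of these data known. Named genes are all compared members, with full values for the 8 of smallest p and those free of overlap, and 2 genes per other list. Library values of Cyp46a1 and Cyp2j9 and the values of Srebf2, Aldh1a2, Star, Fdx1, Fdxr, Hmox2 and the P450 genes of liver are given beyond that rule, chosen after they were seen. Alternatives were DESeq2 1.42.0, limma-voom 3.58.1, other scalings and filters, robust dispersion, a replicate block, unsummed rows, each library left out, a threshold of 0.1 on the adjusted p, and removal of structural RNA.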

Additional observations from a re-analysis of the deposited data

How the results depend on the processing

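The number of P450 genes called was 0 under each of the 20 alternatives. Of the 21 compared genes, 12 kept the sign of their log2 fold change in every alternative that could be fitted and 9 did not. The median of the members, 0.46 in the main test, was 0.73 with the replicate number as a block and 0.26 to 0.51 with 1 library left out, lowest without SCFA 3 and 0.29 without control 3; the cause was not tested. Over the whole table, 1 gene was higher and 9, among them 6 markers of exocrine pancreas, were lower with SCFA. Without a filter these counts were 30 and 25, with DESeq2 15 and 19, with limma-voom 0 and 0, and without control 2 and SCFA 2 together 14 and 14. With 1 library left out they ran from 0 to 8 higher and from 0 to 13 lower, and the fewer libraries are part of that setting. With the replicate block 10 genes were higher and 13 lower, but deviations from the group means correlated at 0.00344, 0.00288 and -0.0138 between libraries of equal number, so the numbers were not taken as pairs. Cyp4f18 fell under the filter without control 2 and SCFA 2 and has no value there. Low depth limits the members under 200 counts. Their standard errors lay between 0.878 and 1.18, leaving out that of Cyp4f18, which was not steady.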

Other observations

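Among the 45 P450 genes detected below 60 counts, 12 had a single count, 24 had 2 to 9 and 9 had 10 or more. Several of these came from a few libraries only. Cyp2r1, which activates vitamin D, had 0 counts in SCFA 1 to 3, and 2, 0 and 23 in controls 1 to 3. Cyp17a1, a steroid hydroxylase gene, had 9 counts, all in control 3. Cyp2j8 had 0 counts in SCFA 1 to 3, and 14, 0 and 7 in controls 1 to 3. In the other direction, Cyp8b1, a bile acid-forming enzyme of liver, had 6, 7 and 9 counts in SCFA 1 to 3, and 2, 0 and 0 in controls 1 to 3, and Cyp4f37 had 4, 13 and 5 in SCFA 1 to 3, and 2, 0 and 1 in controls 1 to 3. Ch25h, which makes an oxysterol outside the P450 family, had 9, 6 and 9 counts in SCFA 1 to 3, and 3, 0 and 0 in controls 1 to 3. These genes were named after their values were seen, and none was tested.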
